A study of Drosophila melanogaster with 12 samples.

Results

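RNA precipitated with an anti-m6A antibody from neuroblast-biased larval brain lobes of *Drosophila melanogaster* was compared, gene by gene, with RNA precipitated in the same way from wildtype lobes. The libraries were chosen by their labels alone: 2 neuroblast-biased and 2 wildtype meRIP libraries (m6A RNA immunoprecipitation followed by sequencing), 4 of the 12 libraries of the study. Wildtype lobes came from Oregon_R larvae and are called neuron-biased in the labels, since most of their cells are neurons. Neuroblast-biased lobes carried the genotype insc_aPKC_CAAX, in which the *insc-Gal4* driver, active in neuroblasts, expresses a membrane-tethered atypical protein kinase C (*UAS-aPKC-CAAX*). The third genotype, *Mettl3* null, lacks the enzyme that writes m6A and served as the background of the antibody, and every genotype also had 2 input libraries made without precipitation from the other portion of the same RNA. All larvae were at the L3 stage. The lobes were sequenced whole, so neuroblast-biased lobes still held neurons and glia, and for every result below fewer cells of a type and less RNA per cell cannot be told apart.

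Neuroblasts are the neural stem cells of the fly. They divide asymmetrically, keeping a polarity complex that contains aPKC at one pole and handing cell fate determinants such as Miranda, Prospero and Brat to the other daughter, which goes on to form neurons or glia. Active aPKC over the whole cortex turns many of these divisions into symmetric self-renewing ones, which multiplies neuroblasts at the expense of neurons. N6-methyladenosine (m6A) is a methyl mark on adenosines of mRNA, written by the Mettl3–Mettl14 complex and read by proteins of the YTH family. A meRIP level depends on the abundance of a transcript and on how well the antibody retains it. Input values are set beside it for a part of the lists and genes below.

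The 4 meRIP libraries compared were deeper than the input libraries, while the *Mettl3* null meRIP libraries held 16745268 and 7870449 counts. The wildtype meRIP libraries held 19689052 and 16554173 counts and the neuroblast-biased ones 31352131 and 31016692, against 4220420 to 10828815 in the 6 input libraries. The median standard error of a neuroblast-biased minus wildtype log2 fold change (log2FC) was 0.272 in meRIP and 0.595 in input. Wildtype replicate 2 and neuroblast-biased replicate 1 stood apart at the low end: counts of 1 to 3 were recorded for 644 and 348 genes there, against 1664 and 1368 genes in their partner libraries. The non-coding RNA *cherub*, which is made in neuroblasts, took 2.33% and 2.98% of all wildtype counts but 15.5% and 18.4% of the neuroblast-biased counts. The labels were checked against marker genes by summing normalised read counts (CPM, read counts scaled to a common library size). The 5 neuroblast markers summed to 576.3 and 619.3 CPM in wildtype and to 2739 and 3214 CPM in neuroblast-biased meRIP, and all 5 were higher. The 5 neuron markers summed to 3168 and 4240 CPM in wildtype against 1050 and 1176 CPM in neuroblast-biased meRIP, and all 5 were lower but none was absent. *Mettl3* itself was counted at 11.5 and 13.6 CPM in wildtype, 15.8 and 12.8 CPM in neuroblast-biased and 2.99 and 3.48 CPM in *Mettl3* null meRIP.

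The 5′ UTR letters at which fly m6A is known to occur are shown first for 8 genes whose meRIP level differed between the genotypes, 4 higher in neuroblast-biased lobes (*Imp*, *svp*, *Sp1* and *run*) and 4 lower (*mamo*, *dpr6*, *beat-IIa* and *Dscam2*). They are the AAAC core of a motif found around m6A in fly 5′ UTRs. Each line holds 28 bases of the 5′ UTR of the canonical transcript, read 5′ to 3′ on the strand of the RNA from the Release 6 genome (BDGP6) with Ensembl 115 gene models. Capitals mark the AAAC nearest to the start codon among copies with 12 bases on both sides within the same 5′ UTR exon.
Imp (X:10813378-10813405, minus strand): acgcacaccaaaAAACcgaaaagcaaaa
svp (3R:12281461-12281488, plus strand): aggactctatcgAAACcaaagtgtgaac
Sp1 (X:9730409-9730436, plus strand): aaagcagaagcaAAACagacagcatcat
run (X:20694621-20694648, plus strand): atccgcaatagaAAACcggcaattgtcg
mamo (X:13967309-13967336, minus strand): attggaaaattgAAACttatggattgct
dpr6 (3L:10003624-10003651, plus strand): aatagaaaagccAAACggcggctaagtt
beat-IIa (3R:17345673-17345700, minus strand): aaaagtgccaagAAACagacagtgcggc
Dscam2 (3L:7189318-7189345, minus strand): aaatcagaatcaAAACagaagccggtaa

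The AAAC shown lay 28 bases before the start codon in *Imp* and 14 bases before it in *Dscam2*, and 392 bases before it in *dpr6*. Such letters are common: *mamo* held 33 copies in a 5′ UTR of 1757 bases, *Sp1* 19 copies in 916 bases and *svp* 2 copies in 443 bases. Of the 8733 tested genes with a 5′ UTR, 74.2% held AAAC at least once on the strand of the RNA, at a median UTR length of 175 bases and 0.993 copies per 100 bases. Genes called lower in neuroblast-biased meRIP had longer 5′ UTRs (median 360.5 bases) than genes called higher (127 bases), and 83.5% and 70.2% of them held the letters, at 1.05 and 0.943 copies per 100 bases. All *dpr*, *beat* and *side* genes with a 5′ UTR held AAAC, against 43.4% of the cytoplasmic ribosomal protein genes, whose 5′ UTRs had a median of 85 bases. These are descriptions of sequence, and a match is not a mapped site.

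Of 9493 genes tested in meRIP by limma-voom, 43.5% differed between the genotypes at an adjusted p below 0.05. Of these, 1872 genes (19.7%) were higher in neuroblast-biased lobes and 2256 genes (23.8%) were lower. At an unadjusted p below 0.05 the share was 51.2%, and the replicates of the genotypes did not overlap for 72.8% of genes. Leaving out wildtype replicate 2 left 1020 genes higher. The differences ran along gene families, as the plot of called members by list shows. Most members were higher in the lists of ribosome biogenesis, cytoplasmic ribosomal proteins, translation initiation, DNA replication, the mitotic spindle and neuroblast transcription factors. Most members were lower in the lists of pan-neuronal markers, synaptic genes, transmitter receptors, neuropeptides, channels and surface proteins. Of the 60 gene lists read, 13 had more higher than lower members and 41 the reverse, against a median log2FC of 0.01 over all genes.

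**Figure D1:**
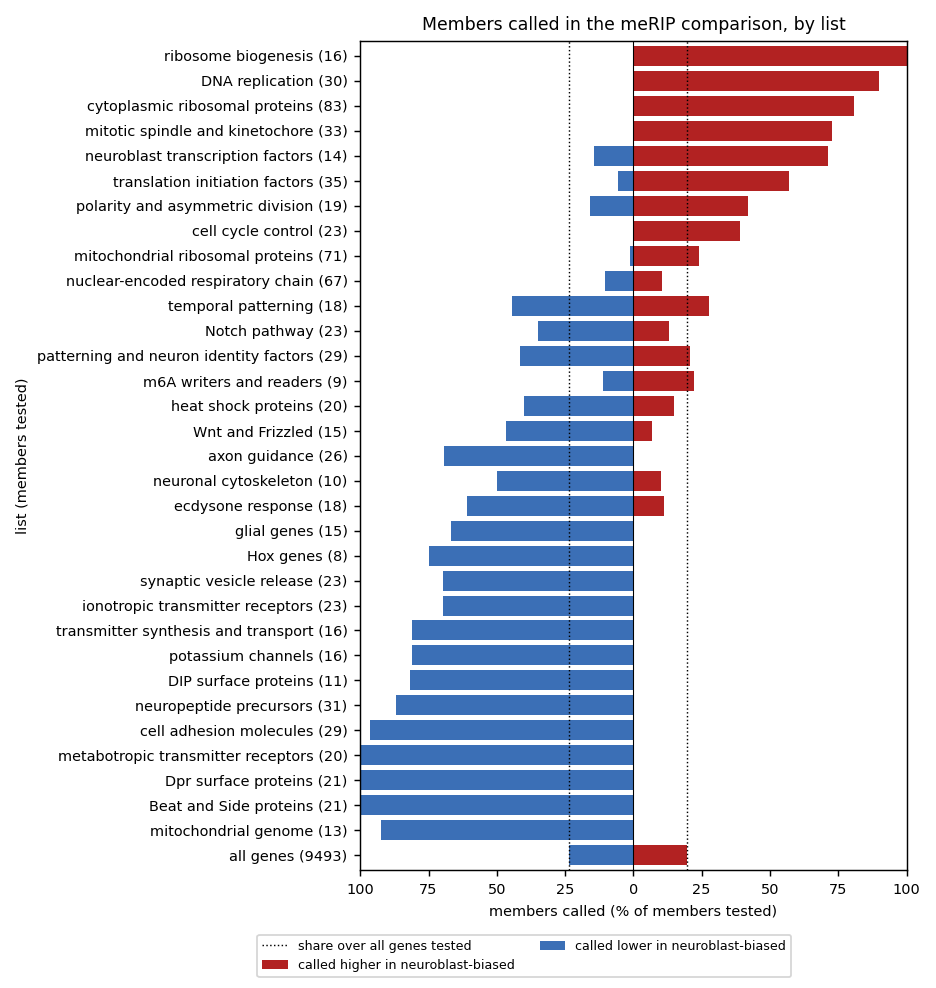
Share of the tested members of 32 gene lists called higher (red, right) or lower (blue, left) in neuroblast-biased than in wildtype meRIP (adjusted p below 0.05, limma-voom), with the number tested in parentheses. Dotted lines mark the shares over all genes, 19.7% higher and 23.8% lower; all 16 ribosome biogenesis genes were higher, and all 21 Dpr genes and all 21 Beat and Side genes were lower.

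Ribosome biogenesis was the list that rose throughout. All 16 tested genes of nucleolar rRNA processing were higher, with a median log2FC of 1.87 in meRIP and 1.49 in input, where 11 were called higher. *Fib* (fibrillarin, the rRNA methyltransferase of the nucleolus; 2R:23072909-23074725) was counted at 32.4 and 17.9 CPM in wildtype against 239 and 196 CPM in neuroblast-biased meRIP. That is 8.79-fold higher (log2FC 3.14 ± 0.259 SE, adjusted p = 4.12e-10), with *Mettl3* null libraries at 68.6 and 84.8 CPM. *Non1*, a nucleolar GTPase needed for the large ribosomal subunit, rose from 198 and 162 CPM to 1266 and 960 CPM. *Surf6* stood at 11 and 12.3 CPM in wildtype and at 58.1 and 46.4 CPM in neuroblast-biased meRIP.

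Of 83 cytoplasmic ribosomal protein genes tested, 67 were higher and none lower, with a median log2FC of 1.17 in meRIP and 0.95 in input, and in input 78 of 84 were higher. *RpL34b* was counted at 358 and 234 CPM in wildtype and at 1315 and 1144 CPM in neuroblast-biased meRIP (4.25-fold, log2FC 2.09 ± 0.26 SE). *RpS26* went from 455 and 277 CPM to 1459 and 1090 CPM. *RpL22*, whose exons overlap another gene over 34.3% of their length so that its counts are uncertain, showed 451 and 248 CPM against 1551 and 1081 CPM. *RpS7* was the uncalled member with the most counts, at 1012 and 1103 CPM in wildtype against 1370 and 1263 CPM in neuroblast-biased meRIP. In this family the *Mettl3* null level lay near the wildtype one, with a median log2 difference of wildtype over null of −0.15, and the neuroblast-biased level above it, with a median of 0.94.

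Of 35 translation initiation factors, 20 were higher and 2 lower, and the median log2FC was 0.76. *eIF6*, which holds the large subunit apart until it is mature, was counted at 39.3 and 29.8 CPM in wildtype and at 136 and 122 CPM in neuroblast-biased meRIP. *eIF2Bepsilon*, a subunit of the nucleotide exchange factor for eIF2, stood at 8.53 and 6.08 CPM against 35.3 and 20.6 CPM, and *eIF2beta* at 78.5 and 87.6 CPM against 299 and 241 CPM. The 2 lower members were *eIF5* and *eIF4B*. *eIF5* shares 80.8% of its exon length with another gene, so its fall from 13.5 and 25.1 CPM to 4.71 and 5.09 CPM cannot be assigned to it with certainty. *eIF4H1*, the uncalled member with the most counts, showed 1097 and 2050 CPM in wildtype against 1083 and 1372 CPM in neuroblast-biased meRIP, overlapping between genotypes.

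Replication genes were nearly all higher. Of 30 tested, 27 were higher and none lower, with a median log2FC of 1.26 in meRIP and 0.81 in input, where 7 were called. *Mcm10*, a loading factor of the replicative helicase, stood at 7.88 and 5.78 CPM in wildtype and at 23.7 and 19.1 CPM in neuroblast-biased meRIP. *Orc5*, a subunit of the origin recognition complex, stood at 6.3 and 4.13 CPM against 16.6 and 15.4 CPM, and *Prim2*, a primase subunit, at 3.8 and 1.88 CPM against 14.8 and 8.76 CPM. These transcripts were low in every library, which gives them standard errors of 0.313 to 0.445. *RnrS*, the small subunit of ribonucleotide reductase, was the uncalled member with the most counts, with 76.9 and 102 CPM against 94.2 and 112 CPM.

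Of 33 mitotic spindle and kinetochore genes, 24 were higher and none lower (median log2FC 1.01). *Incenp*, the scaffold of the Aurora B complex, rose from 45 and 37.8 CPM to 195 and 153 CPM (4.17-fold, log2FC 2.06 ± 0.223 SE, adjusted p = 2.65e-08). *ana2*, needed to build centrioles, stood at 8.26 and 4.28 CPM in wildtype against 30 and 25.6 CPM in neuroblast-biased meRIP, and *pav*, the kinesin of the central spindle, at 42.6 and 38.4 CPM against 136 and 123 CPM. Among 23 cell cycle regulators 9 were higher and none lower, and without wildtype replicate 2 this count was 5. *CycB3*, a mitotic cyclin, stood at 102 and 105 CPM in wildtype against 235 and 263 CPM in neuroblast-biased meRIP, and *CycB* at 89.2 and 78.7 CPM against 187 and 176 CPM. *pim*, the securin that holds sister chromatids together until anaphase, rose from 5.27 and 4.65 CPM to 9.61 and 12.5 CPM, and was not called without wildtype replicate 2. *CycD*, which drives growth together with Cdk4, was higher by a log2FC of 0.81 ± 0.241 SE, at 22.8 and 19.3 CPM against 31.2 and 44.2 CPM, and was not called without wildtype replicate 2 or without neuroblast-biased replicate 2. The G1/S factor *E2f1* was not called, with 1339 and 1590 CPM in wildtype against 867 and 1147 CPM in neuroblast-biased meRIP.

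Transcription factors of neuroblasts were higher for 10 of 14 tested genes and lower for 2, with a median log2FC of 1.19 in meRIP and 0.99 in input. *grh* (grainyhead, a factor kept by late neuroblasts; 2R:17801132-17842820) was counted at 121 and 124 CPM in wildtype against 897 and 1007 CPM in neuroblast-biased meRIP, 7.75-fold higher (log2FC 2.95 ± 0.225 SE, adjusted p = 1.47e-10). Its input log2FC was 3.63. *nab*, a transcriptional cofactor, rose from 90.2 and 66 CPM to 537 and 486 CPM, and *wor* (worniu, a Snail-family factor) from 48.8 and 45.6 CPM to 289 and 226 CPM. *ase* (asense), which marks type I neuroblasts, stood at 105 and 142 CPM against 280 and 326 CPM. The 2 lower members belong to the intermediate progenitors of type II lineages: *erm* fell 2.02-fold (log2FC −1.01 ± 0.206 SE), and *opa* from 258 and 304 CPM to 101 and 140 CPM. *SoxN* did not pass the test, at 1424 and 1548 CPM in wildtype against 1116 and 1596 CPM in neuroblast-biased meRIP.

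**Figure D2:**
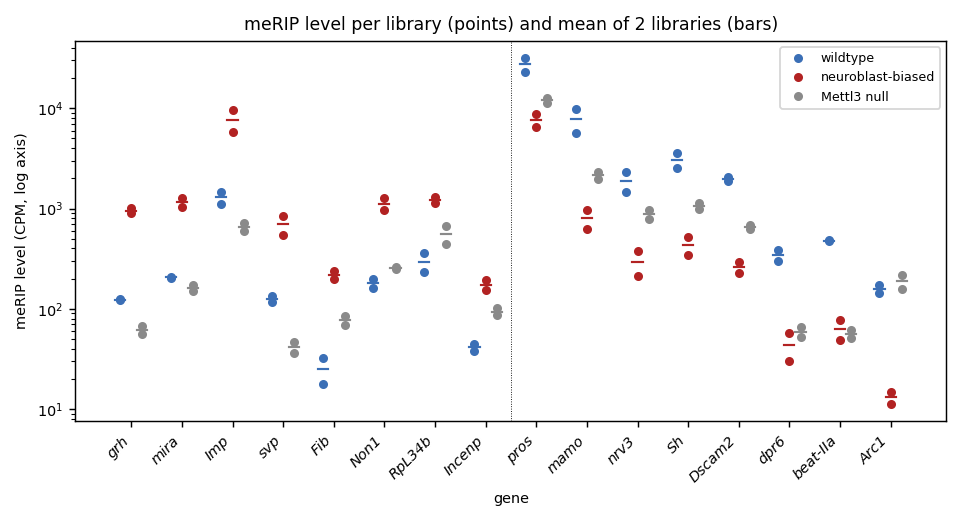
meRIP level of 16 genes in CPM on a log axis, each point 1 library and each bar the mean of 2, for wildtype (blue), neuroblast-biased (red) and *Mettl3* null (grey) lobes. To the left of the dotted line the neuroblast-biased points sit above the wildtype points and to its right below them. *beat-IIa* stood at 484 and 473 CPM in wildtype, 49.2 and 77.2 CPM in neuroblast-biased and 51.7 and 61.4 CPM in *Mettl3* null libraries. These levels are not corrected for transcript abundance.

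Of 19 genes of polarity and asymmetric division tested, 8 were higher and 3 lower, and without wildtype replicate 2 the higher count was 5. *mira* (miranda, the adaptor that carries fate determinants to the basal cortex) was counted at 208 and 203 CPM in wildtype and at 1046 and 1268 CPM in neuroblast-biased meRIP (5.61-fold, log2FC 2.49 ± 0.229 SE). *insc* (inscuteable, which links the polarity complex to the spindle) stood at 58.6 and 38.5 CPM against 179 and 152 CPM, and *pon*, the partner of Numb, at 41.2 and 34.8 CPM against 130 and 101 CPM. The lower members were *pros*, *brat* and the kinesin gene *Khc-73*. *pros* (prospero, which ends self-renewal in the daughter cell and stays on in many neurons) fell from 22990 and 31732 CPM to 6460 and 8716 CPM, a 3.61-fold difference, and *brat*, another determinant carried by Miranda, fell from 3366 and 4426 CPM to 1427 and 2032 CPM. *Khc-73* fell from 276 and 268 CPM to 170 and 167 CPM, and was not called without either wildtype replicate. *aPKC*, the kinase that the transgene expresses, was not called in meRIP at 207 and 254 CPM against 289 and 385 CPM (log2FC 0.54 ± 0.232 SE, adjusted p = 0.0595), while its input log2FC was 1.63 (adjusted p = 5.17e-05). The counts do not separate transgene from endogenous transcripts, and the difference between the meRIP and the input value was not past the threshold.

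Temporal factors, which neuroblasts express in sequence as they age, moved in both directions. Of 18 tested, 5 were higher and 8 lower (27.8% and 44.4%, against 19.7% and 23.8% over all genes). Their median log2FC of −0.14 changed sign without wildtype replicate 2 and without neuroblast-biased replicate 1. *Imp*, an RNA-binding protein of young neuroblasts, rose from 1115 and 1476 CPM to 5861 and 9546 CPM (5.83-fold, log2FC 2.54 ± 0.286 SE, adjusted p = 4.77e-08). *svp* (seven-up), which times the switch out of the early state, rose from 134 and 116 CPM to 546 and 849 CPM. *lin-28*, an RNA-binding protein of stem cells, was counted at 0.272 and 0.15 CPM in wildtype and at 31.8 and 36.6 CPM in neuroblast-biased meRIP. The largest fall was of *pdm2*, an early temporal factor, from 9.18 and 11.9 CPM to 0.359 and 0.75 CPM. *Eip93F*, an ecdysone-induced late factor, fell from 864 and 1351 CPM to 141 and 229 CPM. *mamo*, a zinc-finger factor of mushroom body neurons, fell from 5661 and 9943 CPM to 627 and 968 CPM (9.67-fold, log2FC −3.27 ± 0.292 SE). *Syp*, the RNA-binding protein that opposes Imp in old neuroblasts, did not pass, at 7638 and 10552 CPM against 5519 and 9861 CPM.

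Of 23 Notch pathway genes 3 were higher and 8 lower (13% and 34.8%, against 19.7% and 23.8% over all genes), and without wildtype replicate 2 the lower count was 4 and without wildtype replicate 1 the higher count was 1. The receptor *N* rose from 931 and 1046 CPM to 1563 and 1958 CPM, and was not called without wildtype replicate 1 or without neuroblast-biased replicate 2. Its target *E(spl)mgamma-HLH*, a repressor used by neuroblasts, stood at 49.2 and 62.6 CPM against 93.7 and 105 CPM, and was not called without wildtype replicate 1. *E(spl)m8-HLH* of the same gene complex was also higher, at 19.7 and 19 CPM against 34.4 and 34 CPM (log2FC 0.82 ± 0.239 SE). Others of the complex were lower: *E(spl)m5-HLH* fell from 16.9 and 16.3 CPM to 2.94 and 3.23 CPM and *E(spl)m4-BFM* from 56.5 and 60.2 CPM to 13.4 and 15.5 CPM.

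Among the neuronal lists, all 10 pan-neuronal markers tested were lower (median log2FC −1.80 in meRIP and −1.83 in input). *nrv3*, a neuronal subunit of the sodium pump, fell from 1464 and 2333 CPM to 215 and 378 CPM (6.5-fold, log2FC −2.70 ± 0.275 SE, adjusted p = 9.5e-09). *Syt1*, the calcium sensor of synaptic vesicle fusion, fell from 436 and 624 CPM to 65.3 and 105 CPM, and *para*, the sodium channel of action potentials, from 476 and 782 CPM to 87.7 and 148 CPM. Glial genes, which mark the other large class of brain cells, were lower for 10 of 15 genes, among them *alrm* of astrocytes (19.8 and 23.9 CPM against 6.67 and 5.68 CPM), and the 4 glial markers summed to 279.7 and 261.4 CPM in wildtype against 149.6 and 130.7 CPM in neuroblast-biased meRIP.

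At the synapse, 16 of 23 vesicle release genes and 13 of 16 genes of transmitter synthesis and transport were lower, and none was higher. *Rim*, a scaffold of the active zone, fell from 680 and 969 CPM to 140 and 183 CPM. *Snap25*, a SNARE of the plasma membrane, fell from 52.4 and 60.1 CPM to 10.8 and 11.6 CPM. The acetylcholinesterase gene *Ace* fell from 508 and 626 CPM to 128 and 154 CPM. Among the members that did not pass, *lap*, a clathrin adaptor, stood at 351 and 379 CPM against 205 and 309 CPM, and *ple* (tyrosine hydroxylase of dopamine neurons) at 3.69 and 2.78 CPM against 1.41 and 1.93 CPM.

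All 20 metabotropic transmitter receptors tested were lower (median log2FC −2.12), against 7 called lower in the shallower input, where the median was −1.98. *5-HT7*, a serotonin receptor, fell from 57.3 and 59.5 CPM to 5.65 and 11.4 CPM (7.39-fold), and *Octbeta1R*, an octopamine receptor, from 28.6 and 30.1 CPM to 3.56 and 4.81 CPM. Of 23 ionotropic receptors 16 were lower and none higher. *GluRIA*, a glutamate receptor subunit, fell from 97.5 and 124 CPM to 9.05 and 19 CPM (8.52-fold, log2FC −3.09 ± 0.293 SE), and *nAChRalpha6* fell from 1057 and 1539 CPM to 165 and 312 CPM. *nAChRalpha5* was not called, at 670 and 850 CPM in wildtype against 492 and 827 CPM in neuroblast-biased meRIP (adjusted p = 0.462).

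Of 31 neuropeptide precursors 27 were lower, with the lowest median of the neuronal lists (log2FC −2.56 in meRIP, −3.23 in input). *Ilp2*, the insulin-like peptide of a small group of brain neurosecretory cells, stood at 14.3 and 17.3 CPM in wildtype and at 0.948 and 2.41 CPM in neuroblast-biased meRIP. *SIFa* fell from 23.2 and 16.7 CPM to 1.54 and 3.35 CPM, and the diuretic hormone gene *Dh31* from 17.7 and 23.5 CPM to 1.93 and 3.75 CPM. In this family the wildtype level lay near that of the *Mettl3* null (median log2 difference 0.01). This difference takes no account of transcript abundance, so it does not place these genes at the antibody background. Of 16 potassium channel genes 13 were lower, *Sh* (Shaker) from 2525 and 3613 CPM to 346 and 518 CPM and *SK* from 299 and 466 CPM to 41.6 and 61 CPM. Of 9 sodium and calcium channel genes 7 were lower. *NaCP60E* was not, with 142 and 143 CPM in wildtype against 170 and 172 CPM in neuroblast-biased meRIP (adjusted p = 0.299).

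The immunoglobulin-domain proteins that neurons use to recognise partners were lower as whole families. All 21 *dpr* genes tested were lower (median log2FC −2.24), as were 9 of 11 genes of their DIP receptors (median −2.10) and all 21 *beat* and *side* genes (median −2.18). *dpr6* (3L:9974651-10139360) fell from 298 and 388 CPM to 30.4 and 57.8 CPM, 8.15-fold (log2FC −3.03 ± 0.253 SE, adjusted p = 5.24e-10). *dpr10* fell from 97.7 and 97.3 CPM to 10.5 and 19.4 CPM and the receptor gene *DIP-epsilon* from 91 and 89.5 CPM to 12.7 and 16.9 CPM. *beat-IIa* (3R:17320004-17366119) fell from 484 and 473 CPM to 49.2 and 77.2 CPM, 7.77-fold, and *beat-Ic* from 156 and 180 CPM to 16.3 and 31.6 CPM. The receptor gene *DIP-alpha* was not called, at 42.7 and 46.8 CPM against 39.5 and 32.1 CPM. In wildtype the median log2 difference over the *Mettl3* null was 1.99 for *dpr* genes and 1.74 for *beat* and *side* genes. In neuroblast-biased meRIP it was −0.11 and −0.64. These differences take no account of transcript abundance, so the latter values do not place these genes at the antibody background. The median input log2FC was −3.14 for *dpr* genes and −2.59 for *beat* and *side* genes. The median ratio of meRIP to input was 1.40 and 0.29, against 0.20 over all genes. In input, where these transcripts were sparse, 5 *dpr* genes and 11 *beat* and *side* genes were called lower.

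Other adhesion molecules were lower in 28 of 29 genes (median log2FC −1.51). *Dscam2*, which keeps sister neurites apart, fell from 1876 and 2054 CPM to 228 and 291 CPM (7.62-fold, log2FC −2.93 ± 0.236 SE, adjusted p = 3e-10), and the neuroligin *Nlg4* from 190 and 262 CPM to 23.3 and 37 CPM. *Nrt* (neurotactin) was the member not called, at 1944 and 2086 CPM against 1449 and 1827 CPM. Axon guidance genes were lower in 18 of 26 cases with a smaller median of −0.83. *robo3* fell from 619 and 555 CPM to 134 and 178 CPM and *Ephrin* from 94 and 159 CPM to 38 and 44.6 CPM, while the midline ligand *sli* did not pass (1376 and 1304 CPM against 838 and 1028 CPM). Of 10 genes of the neuronal cytoskeleton 5 were lower and 1 higher. *futsch*, a microtubule-binding protein of axons, fell from 1233 and 1654 CPM to 325 and 368 CPM. *DAAM*, a formin, rose from 81.3 and 66.3 CPM to 135 and 110 CPM (log2FC 0.72 ± 0.215 SE, adjusted p = 0.0077), and was not called without wildtype replicate 2 or without neuroblast-biased replicate 1. The spectraplakin *shot* stood at 1025 and 1017 CPM against 1032 and 1086 CPM.

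Of 5 activity-regulated genes 3 were lower. *Arc1*, a retrotransposon-derived gene whose RNA is carried between cells, fell from 174 and 143 CPM to 14.9 and 11.4 CPM, a 12-fold difference (log2FC −3.59 ± 0.242 SE, adjusted p = 1.46e-11). The gap junction gene *shakB* fell from 328 and 438 CPM to 36.4 and 58 CPM, while *Inx2* was not called at 799 and 777 CPM against 562 and 816 CPM.

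**Figure D3:**
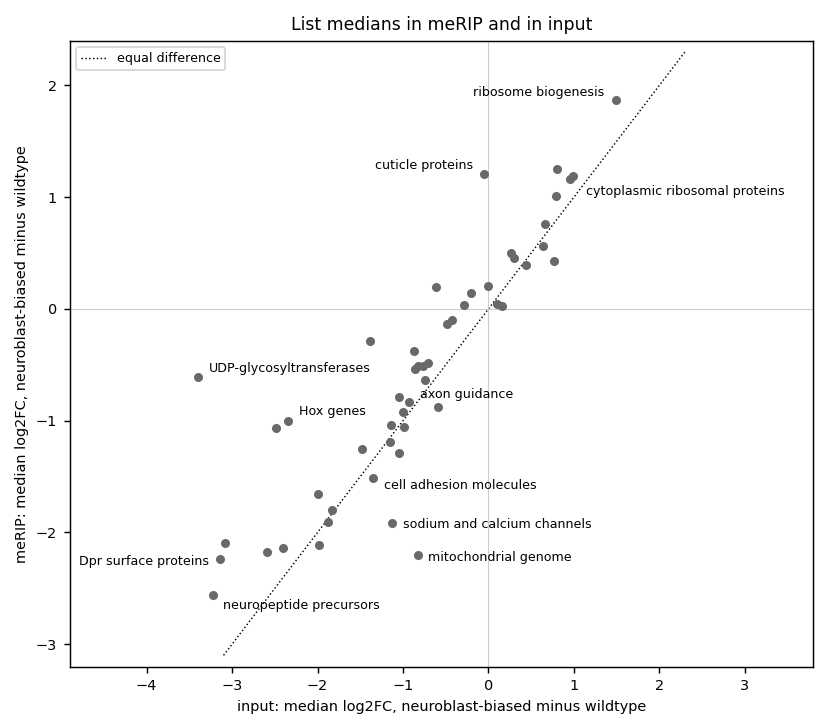
Median log2FC (neuroblast-biased minus wildtype) of 51 gene lists with at least 8 members tested, in input (horizontal axis) and in meRIP (vertical axis); the dotted line marks equal difference. Most lists lie near the line, ribosome biogenesis at 1.49 and 1.87; the mitochondrial genome lies below it at −0.83 and −2.21, and the Dpr genes above it at −3.14 and −2.24.

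The meRIP differences were set beside those of the input, which measures abundance without the antibody. In input 13.4% of 9423 genes were called, 498 (5.28%) higher and 762 (8.09%) lower, and 26.8% at an unadjusted p below 0.05. Among 8943 genes tested in both, 429 were higher and 704 lower in both, and the directions of calls were opposite for 1 gene. Of the 3979 genes called in meRIP, 3706 (93.1%) had the same sign in input. Since meRIP and input libraries came from the same RNA, this share is a description. The ratio of meRIP to input was then compared between genotypes in a model over all 12 libraries. By limma-voom it was called for 0 of 9918 genes (0%), and 674 genes (6.8%) had an unadjusted p below 0.05. Counting by edgeR gave 2 genes with a higher ratio, and DESeq2 gave 29 higher and 11 lower. The median standard error of this ratio was 0.693, and ratio differences as large as −3.1 ± 0.561 SE (*mt:ND5*) and −2.46 ± 0.429 SE (*mt:ND4*) had an adjusted p of 0.266. A ratio that was not called is therefore not shown to be equal, and the part of depth in these standard errors was not tested. The labels name kallisto for input and the methods featureCounts for meRIP, so the counters behind a ratio may differ.

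Some genes are shown by the study as examples of m6A targets. *mnb*, a kinase of the minibrain family, was counted at 2094 and 2769 CPM in wildtype, 1186 and 1827 CPM in neuroblast-biased and 384 and 447 CPM in the *Mettl3* null (log2FC −0.71 in meRIP and −0.47 in input). *fra* (frazzled, the netrin receptor) stood at 1149 and 1104 CPM against 557 and 762 CPM, with 365 and 369 CPM in the null. *mnb* lost its call without wildtype replicate 2 and without neuroblast-biased replicate 1, and *fra* without either of these or wildtype replicate 1. *Sp1*, a transcription factor of type II neuroblasts, rose from 124 and 132 CPM to 308 and 346 CPM over a null of 38.8 and 37.1 CPM, and *run* from 45.4 and 32.5 CPM to 109 and 119 CPM over a null of 39 and 43.2 CPM. For *Sp1* the meRIP log2FC was 1.35 and the input one 0.33, a difference not called in the ratio. For *Sp1* and *run* the study also measured precipitated RNA by RT-qPCR, and it concludes that their m6A did not differ between these brains. Of the 9 genes of m6A writers and readers, *Hakai* and *Flacc*, both of the writer complex, were called higher and the reader *Ythdf* lower. These are shares of 22.2% and 11.1%, against 19.7% and 23.8% over all genes. *Ythdf* stood at 216 and 237 CPM in wildtype against 126 and 158 CPM in neuroblast-biased meRIP. Without wildtype replicate 2 none of these 3 was called. *Ythdf* also lost its call without wildtype replicate 1, and *Ythdf* and *Flacc* lost theirs without neuroblast-biased replicate 1.

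Most transcripts of the mitochondrial genome were lower in meRIP, and their median fell by more in meRIP than in input. Of 13 protein-coding genes, input called 4 lower and 1 higher, *mt:ATPase6* (input log2FC 0.80). In meRIP 12 of the 13 were lower, with a median log2FC of −2.21, against −0.83 in input and −1.20 in the ratio. Among these 12, *mt:ND4L* and *mt:ND6* had at most 3 counts in each neuroblast-biased meRIP library. They could pass the count filter only through other genotypes. Leaving out wildtype replicate 2 left the lowest count of a single omission, 8 genes. *mt:ND5*, a subunit of complex I, was counted at 36.2 and 42.5 CPM in wildtype and at 2.45 and 5.92 CPM in neuroblast-biased meRIP (10.5-fold, log2FC −3.40 ± 0.381 SE), and its input log2FC was −0.31. *mt:ND4* fell from 35.8 and 44.9 CPM to 4.93 and 7.06 CPM with an input log2FC of −0.29. Their ratios had unadjusted p-values of 5.4e-05 and 3.7e-05 and were not called. *mt:ATPase6* was the exception, at 133 and 189 CPM in wildtype against 91.4 and 326 CPM in neuroblast-biased meRIP, where the replicates differed from each other more than the genotypes did: without neuroblast-biased replicate 1 its log2FC was 1.06, without replicate 2 it was −0.80, and each passed the threshold. Mitochondrial genes encoded in the nucleus did not move in this way. The shares higher and lower were 10.45% and 10.45% for the nuclear respiratory chain and 23.9% and 1.41% for mitochondrial ribosomal proteins. Over all genes they were 19.7% and 23.8%, so the higher share of the ribosomal proteins was near that of all genes. Of 67 respiratory chain genes 7 were higher and 7 lower (median log2FC 0.02), and without wildtype replicate 2 both counts were 2. Of 71 mitochondrial ribosomal proteins 17 were higher and 1 lower, with 7 higher without wildtype replicate 2.

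**Figure D4:**
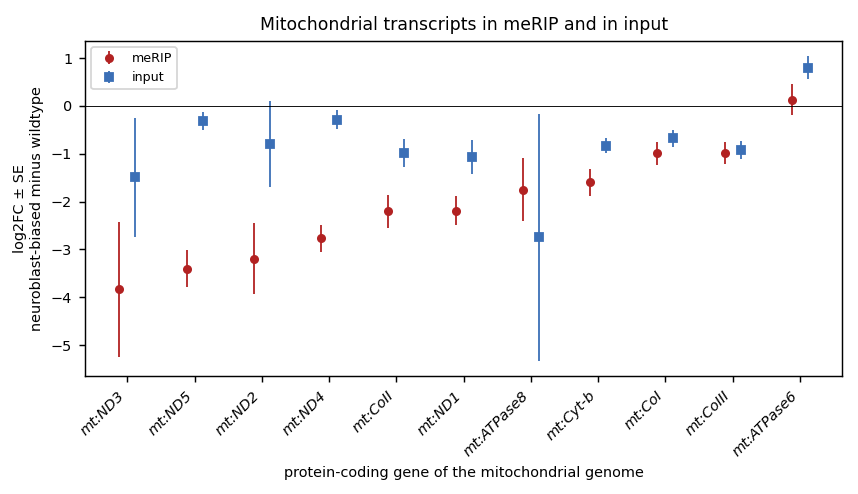
log2FC (neuroblast-biased minus wildtype) with its standard error for 11 protein-coding genes of the mitochondrial genome, in meRIP (red circles) and in input (blue squares); *mt:ND4L* and *mt:ND6*, with at most 3 counts in each neuroblast-biased meRIP library, are left out. *mt:ND5* and *mt:ND4* lay at −3.40 and −2.77 in meRIP and at −0.31 and −0.29 in input.

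Homeotic and patterning genes were mixed. Of 8 Hox genes 6 were lower (median log2FC −1.0), and without neuroblast-biased replicate 1 the count was 2. *Ubx* fell from 80.1 and 88.5 CPM to 18.8 and 31.8 CPM and *abd-A*, which acts in abdominal segments, from 35.7 and 34.9 CPM to 9.38 and 10.1 CPM. In input the median of the Hox genes was −2.35, and 0 of 8 were called. Of 29 factors of patterning and neuron identity 6 were higher and 12 lower (20.7% and 41.4%, against 19.7% and 23.8% over all genes). *ems* (empty spiracles), which is expressed in a few brain lineages, rose from 10.1 and 7.06 CPM to 64.5 and 87.2 CPM (8.68-fold, log2FC 3.12 ± 0.283 SE). The homeobox gene *Dr* rose from 42.8 and 30.4 CPM to 108 and 150 CPM. *Vsx1* of the optic lobe fell from 160 and 124 CPM to 44.4 and 47.9 CPM and *Lim3* of motor neurons from 164 and 190 CPM to 50 and 74 CPM.

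Ecdysone, the steroid of moulting, acts on the brain at this stage. Of 18 genes of the ecdysone response 2 were higher and 11 lower (median log2FC −1.06). *Eip78C* fell from 77 and 85.6 CPM to 3.76 and 8.48 CPM (14.7-fold) and *Eip74EF* from 632 and 692 CPM to 75.6 and 105 CPM, both early response factors. The receptor *EcR* did not pass (992 and 1123 CPM against 682 and 902 CPM). *ImpL2*, a secreted binder of insulin-like peptides, rose from 34.2 and 31.8 CPM to 871 and 990 CPM, 28.1-fold (log2FC 4.81 ± 0.251 SE, adjusted p = 2.82e-13). Other genes share 61.9% of its exon length, so part of these counts may be theirs. Ring gland markers moved beside this list: their sum was 128.9 and 126.8 CPM in wildtype against 33.76 and 32.07 CPM in neuroblast-biased meRIP. *spok*, an enzyme of ecdysone synthesis made in that gland, fell from 67.3 and 78.5 CPM to 6.89 and 9.94 CPM. Of 10 steroid synthesis genes 7 were lower, and 3 without neuroblast-biased replicate 1. The part of ring gland tissue in the ecdysone values was not tested.

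The largest falls of all genes at 10 CPM or more were mostly of salivary gland genes, a tissue outside the brain. *Sgs3*, a glue protein of the salivary gland, was counted at 271 and 321 CPM in wildtype and at 0 and 0.276 CPM in neuroblast-biased meRIP, and *Sgs1* at 66.2 and 86.6 CPM against 0.49 and 0.118 CPM. The salivary gland markers summed to 416.9 and 485.4 CPM in wildtype, 2.418 and 2.446 CPM in neuroblast-biased and 17.28 and 31.6 CPM in *Mettl3* null meRIP. Of the 23 genes of that list 7 were tested, and all 7 were lower. Their median log2FC was −8.76 as fitted and −7.72 with genes at 3 counts or fewer set to their limit. Of the 23, 12 were at 3 counts or fewer in both genotypes and 6 in neuroblast-biased meRIP alone. Genes so low in neuroblast-biased libraries could pass the count filter only through other genotypes, so this count follows in part from the filter. *Sgs7* and *Sgs5*, with at most 3 counts in each neuroblast-biased library, were at least 210.1-fold and 71.58-fold lower by the floor of 3 counts per library. Fat body markers summed to 55.96 and 39.71 CPM against 6.307 and 4.339 CPM. Muscle, haemocyte and eye disc sums were 7.022 to 76.82 CPM in the 4 libraries, and no marker of these tissues was at 0 in all of them. Heat shock genes, which respond to handling as well as to cell state, were lower in 8 and higher in 3 of 20. These are shares of 40% and 15%, against 23.8% and 19.7% over all genes. *Hsp23* fell from 332 and 360 CPM to 75.5 and 59.5 CPM and *Hsp67Bc* from 59.9 and 49.9 CPM to 5.92 and 4.38 CPM. *Hsc70-4*, a constitutive chaperone, rose from 1240 and 1234 CPM to 2975 and 2357 CPM.

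A set of genes was close to absent in wildtype. With at most 3 counts in each wildtype and at least 100 in each neuroblast-biased meRIP library there were 14 genes, and with the genotypes exchanged 2. These limits are in raw counts, and the neuroblast-biased libraries were deeper than the wildtype ones. The part of depth in the 14 against 2 was not tested. *Cpr64Ac*, a cuticle protein gene (3L:4211964-4212915), had 2 and 0 counts in wildtype and 4702 and 4462 counts in neuroblast-biased meRIP, at least 849.3-fold higher by the floor of 3 counts per library. *Cyp4p2*, a cytochrome P450, had 0 and 0 counts against 542 and 446 (at least 90.95-fold higher). *mthl8*, a methuselah-like receptor, had 0 and 0 counts against 448 and 474 (at least 85.88-fold higher), and in *Mettl3* null meRIP it had 312 and 202 counts, so it was counted in the other genotypes and not in wildtype. *GstE1* and *GstD9*, detoxifying transferases, stood at 1.2 and 0.375 CPM and at 1.03 and 1.35 CPM in wildtype against 25.6 and 30.9 CPM and 28.9 and 21.8 CPM. *w* (white), an eye pigment transporter whose copy is carried as a marker by many fly transgenes, was counted at 1.79 and 1.28 CPM in wildtype, 171 and 164 CPM in neuroblast-biased and 0.447 and 0.204 CPM in *Mettl3* null meRIP. Oregon_R and the transgenic flies differ in genetic background, and background and brain composition cannot be told apart here.

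Of 14 genes of Toll and Imd signalling 3 were higher and 4 lower (21.4% and 28.6%), near the shares of 19.7% and 23.8% over all genes. The receptor *Tl* fell from 432 and 442 CPM to 70 and 101 CPM and its adaptor *Myd88* rose from 90.9 and 97 CPM to 271 and 409 CPM. The Wnt receptors *fz2* and *fz* fell from 2749 and 3266 CPM to 705 and 1197 CPM and from 755 and 1070 CPM to 241 and 397 CPM. *fru*, which makes male-specific factors in neurons, rose from 208 and 222 CPM to 799 and 1120 CPM. The RNAs of male dosage compensation went opposite ways: *roX1* rose from 1196 and 1398 CPM to 2568 and 3683 CPM, and *roX2* fell from 91 and 219 CPM to 14.4 and 30.6 CPM. The sex ratio of the dissected larvae is not given in the sources used here.

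Long non-coding RNAs held some of the largest differences in both directions. The shares called were 11.1% higher and 33.2% lower, against 19.7% and 23.8% over all genes. Of 298 tested 33 were higher and 99 lower (median log2FC −0.92), and without neuroblast-biased replicate 1 the lower count was 50. *cherub*, which is passed on asymmetrically in dividing neuroblasts, rose from 24895 and 37082 CPM to 158441 and 224624 CPM (6.17-fold, log2FC 2.63 ± 0.336 SE). *lncRNA:CR31386* (3R:11269415-11305608), on the same arm as *cherub* (3R:11247631-11256123), rose from 5.76 and 5.18 CPM to 213 and 242 CPM, 41.1-fold, and *lncRNA:CR40469* from 6.57 and 16.4 CPM to 373 and 740 CPM, 53-fold. In the other direction *lncRNA:CR46348* fell from 201 and 217 CPM to 8.07 and 10.6 CPM, 22.7-fold (adjusted p = 2.91e-13), while the *Mettl3* null stood at 14.7 and 12 CPM. *lncRNA:CR45312* fell from 196 and 314 CPM to 9.51 and 24 CPM, with 19.9 and 21.1 CPM in the null. The wildtype libraries were thus the high ones for these RNAs, and the other genotypes were alike in level.

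Genes of chromosome 4 were lower as a group. Of 92 tested, 56 (60.9%) were lower and 4 (4.35%) higher, with a median log2FC of −0.98 in meRIP and −0.86 in input, while the medians of the other arms lay between −0.04 and 0.06. *Ephrin* and the glial transporter gene *Gat* of the lists above are on this chromosome, *Gat* at 21 and 27.2 CPM in wildtype against 4.67 and 4.46 CPM in neuroblast-biased meRIP. Over all genes the medians were 0.01 in meRIP and −0.17 in input. The ratio of meRIP to input had a median of −0.11 on chromosome 4 and 0.20 over all genes. This grouping was made after the values were seen and has no test.

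**Figure D5:**
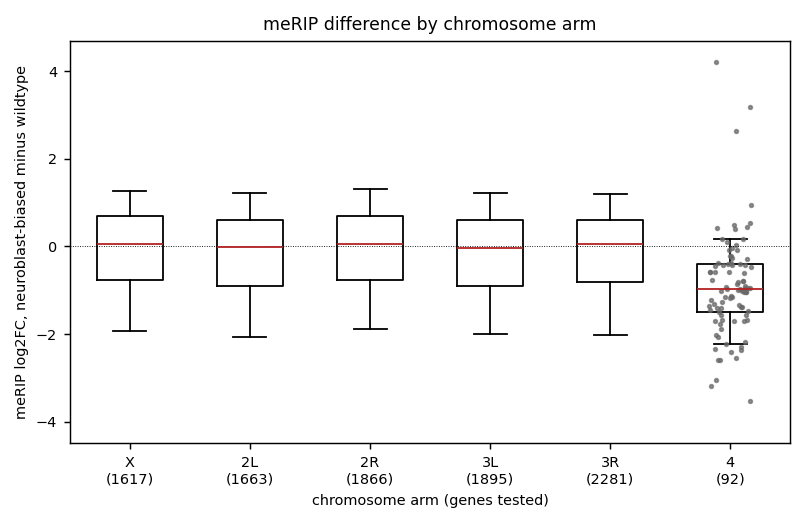
meRIP log2FC (neuroblast-biased minus wildtype) of the tested genes on each chromosome arm, with the number of genes in parentheses; boxes span the quartiles, red lines are medians, whiskers reach the 10th and 90th percentiles and points are the 92 genes of chromosome 4. The median of chromosome 4 lay at −0.98 and those of the other arms between −0.04 and 0.06.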

How the data were processed

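Brain lobe RNA of 3 genotypes was sequenced as meRIP and as input, 2 libraries each. The authors deposited whole-number counts per gene, read here as raw counts. Per the labels, Trimmomatic was used on the reads and BDGP6 was the genome build. In the methods featureCounts is named for meRIP; the labels name kallisto for input, so the counter behind the input counts is uncertain. Versions, strand setting and treatment of duplicates are not given in the sources used here. Ribosomal RNA was depleted enzymatically during library construction (AnyDeplete). Replicates are separate experiments by the study's account.

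Here the counts were analysed in R 4.3.3 with limma 3.58.1 (voom) and edgeR 4.0.16: filterByExpr with a minimum count of 10, TMM scaling, group means, all 6 libraries of a kind, and the 12 together for the ratio. P-values were adjusted by Benjamini-Hochberg over all genes tested and called below 0.05. CPM values use TMM library sizes. The edgeR quasi-likelihood test and DESeq2 1.42.0, other scalings and filters, and each library left out served as alternatives. The fit was tested on simulated counts.

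Of 17807 gene identifiers, 17710 had a symbol in Ensembl 115 and 97 did not. The 60 gene lists, read through symbols, and the libraries compared were chosen with earlier results of these data known; 7 list entries matched no gene. Genes named were the 5 largest called rises and falls over all genes, up to 3 of each per list with non-overlapping replicates and a mean of at least 10 CPM in the higher genotype, the uncalled member with the most counts, and *Mettl3*, *aPKC* and the study's examples. *cherub*, *w*, the mitochondrial and chromosome 4 groupings, the genes with 5′ UTR windows, *GstE1* and *GstD9*, and the genes near absence were singled out after their values were seen. Antisense and overlapping genes cannot be separated without the strand setting.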

Additional observations from a re-analysis of the deposited data

How the results depend on the processing

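For the meRIP comparison, 1072 genes were higher when a change of at least 2-fold was required, and leaving out a library gave 1020 to 2089 higher and 1682 to 2374 lower genes, the lowest higher count without wildtype replicate 2. Upper-quartile scaling gave 2257 higher and 2065 lower genes (52.2% higher, against 45.3%) and moved the median log2FC of all genes from 0.01 to 0.12; the other scalings, filters and tools stayed within 1.5 times. Input calls depended more on the tool: DESeq2 called 1071 higher and 1474 lower, at least 2-fold left 289 higher, and leaving out a library gave 153 to 467 higher and 332 to 530 lower. For the ratio, edgeR called 2 higher, DESeq2 29 higher and 11 lower, and no filter 10 higher; the cause was not tested. Limits of 1 and 10 counts in place of 3 gave 6 and 25 genes near absence in wildtype, and 10 counts gave 4 in neuroblast-biased meRIP. *mt:ATPase6* was called higher (1.06) without neuroblast-biased replicate 1 and lower (−0.80) without replicate 2. *aPKC* passed the threshold under 6 of 17 alternatives. Of 164 named genes, each setting moved at most 13 below the threshold and at most 9 past it. The median of the nuclear-encoded respiratory chain changed sign under 4 alternatives.

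A fit with replicate numbers as a block gave 2189 genes higher and 2441 lower in meRIP, 4085 of them shared with the fit without it, 483 and 763 in input, and 0 and 0 in the ratio. Same-numbered meRIP libraries deviated together weakly (r = 0.11 for wildtype and neuroblast-biased, 0.08 and 0.04 with the null), so the numbers were not taken as pairs.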
